A study of Drosophila melanogaster with 42 samples.

Results

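The regions described here are 139 of the 288 candidate regulatory regions that carry ChIPCRM identifiers, out of 491 regions in the sequenced libraries of a reporter assay in Drosophila melanogaster embryos. They are the ChIPCRM regions found in the fly pools crossed to the twi or the mef2 driver, chosen by their read counts. A region was taken when it reached 1 CPM (its reads per 1e+06 reads assigned to regions in that library) in at least 1 of 9 inputs, the 3 twi CD2+, 3 twi CD2- and 3 mef2 CD2- inputs numbered 1 to 3. The levels in these 9 inputs chose the members and are given as a description.

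Enhancers, or cis-regulatory modules, are short stretches of DNA that bind transcription factors and raise the transcription of a gene in particular cells. Identifiers of this form belong to a published catalogue of regions bound by mesodermal transcription factors, among them Twist and Mef2, in chromatin immunoprecipitation from embryos. The files do not state this origin, and binding was not measured here. Twist starts the mesoderm programme of the fly embryo, Mef2 drives muscle differentiation, and dumbfounded (duf, also kirre) encodes an adhesion protein of the founder cells that seed each muscle by fusing with other myoblasts.

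Males of a transgenic pool, each carrying a single candidate region that could drive GFP, were crossed to females with a CD2 transgene named for twi, mef2 or duf. Every group held such embryos, collected over 2 to 2.5 h at 25 °C and aged 9 to 10 h at 18 °C, whose dissociated cells were sorted on CD2 and, in the GFP+ groups, on the reporter. Inserts were amplified from genomic DNA, and the assay looks for regions that make up more of the GFP+ reads than of the input reads. These are shares of a whole, so an active region can also fall in share where other regions rise more. The labels give no strain and no driver construct beyond these names. Because the libraries hold inserted DNA and no RNA, the labelled cell populations could not be set against marker genes. The members' place in genes and their sequences were not analysed here.

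For twi there were 3 libraries each of CD2+ GFP+ cells (100783 to 111875 cells), CD2+ input (100000 or 200000), CD2- GFP+ cells (63849 to 66845) and CD2- input (100000 or 200000). For mef2 there was 1 library of CD2+ GFP+ cells, labelled as pooled (16163 cells), with 5 CD2- inputs of 20048 to 32326 cells, called small inputs here. Beside these stood 3 mef2 CD2- GFP+ libraries (94473 to 138635 cells) and 3 CD2- inputs of 200000. For duf there was 1 pooled CD2+ GFP+ library (20015 cells) with 5 small inputs of 39668 cells, and there were 6 CD2- GFP+ libraries (36206 to 55331) and 6 CD2- inputs of 200000. The small duf inputs are titled with CD2 but no sign, and labelled duf:CD2- under cell population. Whether replicates stem from separate crosses is not labelled, and extracts were pooled by sample type, so p-values measure only the spread between libraries, which may be technical.

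The 42 libraries held 15601849 to 30671353 reads. A count of 0, taken as at most 3 reads, allowed up to 0.0978 to 0.192 CPM, and such floors and intervals cover counting error only, since PCR reads without molecular identifiers are not independent molecules. The biological coefficient of variation estimated by edgeR ran from 139% to 185% over the 10 comparisons. Changes are log2 values on the TMM scale with standard errors, from edgeR's quasi-likelihood test with Benjamini-Hochberg adjustment over all regions tested, and a call is an adjusted p under 0.05. Shares of all regions called are given for this fit alone, so counts of members called under other settings are not read as results about the members. TMM centres the bulk of the regions, and total-read scaling moved the median log2 change. The shift was -1.61 and -1.30 for twi CD2+ and CD2- cells against their inputs, 0.04 and -1.57 for mef2, and -0.53 and -2.08 for duf. It moved the comparisons of CD2+ with CD2- GFP+ cells by -0.55 for twi, 0.72 for mef2 and 0.91 for duf.

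The members were spread unevenly over the genome. On 3R lay 60 of the 139 (43.2%), against 26.2% of the 149 other ChIPCRM regions and 27.7% of all 491 regions. On 2L lay 35, on 3L 29, on X 8 and on 2R 7. They were 901 to 1100 bp long with a median of 987 bp. Their GC content ran from 32.3% to 57.7% with a median of 43.0%, beside medians of 42.2% in the other ChIPCRM regions and 42.3% in all regions. Overlap with another region was found for 16 members, and 51 members formed 36 pairs that lay within 5000 bp of each other, so members are not independent of their neighbours. A region named for a gene lay within 20000 bp of 13 members, not all of which are listed here. The largest such overlap was that of ChIPCRM5563 with a region named for CG31640, by 856 bp. ChIPCRM4220, ChIPCRM6295 and ChIPCRM6885 lay 49, 1238 and 1827 bp from regions named for CG32066, CG10275 and rst. ChIPCRM2835 overlapped a tile of slouch, a muscle identity gene, by 533 bp, ChIPCRM2002 overlapped a tile of jumeau, a forkhead factor gene, by 30 bp, ChIPCRM2005 lay 872 bp from another, and ChIPCRM6081 lay 3211 bp from a tile of no ocelli.

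Members differed in how many inputs held them. All 9 inputs that the rule used held 83 members at 1 CPM or more, 56 members reached it in 1 to 8 inputs, and 3 of these in only 1. The threshold fell in a sparse stretch. Just inside it were ChIPCRM3343, ChIPCRM3147 and ChIPCRM2505, with 1.74, 1.89 and 2.61 CPM in their highest input, and the next member had 9.75. Just outside it were ChIPCRM3538, ChIPCRM5544 and ChIPCRM6902, with 0.743, 0.205 and 0.109 CPM, and 136 of the 149 other ChIPCRM regions had no read in these inputs.

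The driver pools differed in which members they held. A mean of 100 CPM over all inputs of a driver was reached by 111 members in the 6 twi, 109 in the 8 mef2 and 124 in the 11 duf inputs. It was reached in all 3 drivers' inputs by 83 members, in twi and duf inputs alone by 18, in mef2 and duf inputs alone by 15, in twi and mef2 inputs alone by 9, and in no driver's inputs by 3. At under 10 CPM in twi and 100 or more in mef2 inputs stood 15 members. These were ChIPCRM2005, ChIPCRM2060+2061, ChIPCRM2612, ChIPCRM2835, ChIPCRM2839, ChIPCRM2889, ChIPCRM2983, ChIPCRM4166, ChIPCRM4351, ChIPCRM4841, ChIPCRM5284, ChIPCRM5368, ChIPCRM5819, ChIPCRM6081 and ChIPCRM7222. Without the highest of the 8 mef2 inputs, an alternative added after seeing the data, 11 of the 15 still had a mean of 100 CPM, and ChIPCRM2060+2061, ChIPCRM2839, ChIPCRM2983 and ChIPCRM7222 fell to 29.7, 5.57, 70.3 and 74.3 CPM. The members at 100 CPM or more then numbered 109 in twi, 93 in mef2 and 120 in duf inputs. The opposite pattern was seen for 11, all of which kept a mean of 100 CPM without their highest twi input, ChIPCRM29, ChIPCRM134, ChIPCRM425, ChIPCRM2002, ChIPCRM2068, ChIPCRM3406, ChIPCRM3549, ChIPCRM4237, ChIPCRM5108, ChIPCRM5283 and ChIPCRM5794. The duf inputs, which the rule did not use, held 129 of the 139 members at 1 CPM or more in at least 1 library and 91 in all 11. ChIPCRM2078, ChIPCRM2839, ChIPCRM2845, ChIPCRM2852, ChIPCRM3147, ChIPCRM4425, ChIPCRM4508, ChIPCRM5894, ChIPCRM7222 and ChIPCRM770 stayed under 1 CPM in every duf input, and 6 of these had no read there. Driver and fly pool cannot be told apart in these differences, and sequencing lanes are labelled for the duf libraries only. The inputs differed in cell number too. Of the 8 mef2 inputs 5 came from 20048 to 32326 cells, and of the 11 duf inputs 5 came from 39668. All twi inputs came from 100000 or 200000 cells. The part of cell number in these differences was not tested.

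Input levels of single members spanned several orders of magnitude. The highest mean was that of ChIPCRM3152 in twi inputs (42458 CPM), of ChIPCRM1831 in mef2 inputs (38099 CPM) and of ChIPCRM1659 in duf inputs (11093 CPM), around medians over members of 1420, 1458 and 1849 CPM. The same leaders did not hold across drivers. ChIPCRM3152 averaged 12149 CPM in mef2 inputs and 1.2 CPM in duf inputs, where 8 of 11 libraries had no read of it. ChIPCRM1831 averaged 21228 CPM in twi inputs and 663 CPM in duf inputs.

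The rule took regions for their reads in twi and mef2 inputs. The members' shares in those pools, and the difference from the duf pool, are therefore given as a description only. Together the members took the larger part of every twi and mef2 library but 1, a mef2 small input with 47.1%. Their share of reads was 65.1% ± 1.31 in twi CD2+ inputs and 72.9% ± 1.31 in the GFP+ cells, and 64.4% ± 2.00 and 78.2% ± 2.58 in twi CD2- cells (SD, n = 3 each). It was 59.8% ± 2.61 in mef2 CD2- inputs and 74.2% ± 2.60 in the GFP+ cells (n = 3 each). In the duf pool it was 39.7% ± 3.19 in CD2- inputs and 39.1% ± 2.82 in the GFP+ cells (n = 6 each). The single mef2 CD2+ GFP+ library held 70.8% beside 59.1% ± 8.51 in its small inputs (n = 5), and the single duf CD2+ GFP+ library 42.8% beside 38.8% ± 1.57 (n = 5). The most abundant members of each library took a larger share of the GFP+ reads than of the input reads. These were the 10 highest members picked anew in each library, so the sums can hold different members. Such sums are not given for other regions. The 10 members took 54.7% ± 2.50 of all reads in twi CD2+ GFP+ cells against 27.0% ± 0.627 in the input, and 57.7% ± 1.70 against 26.0% ± 1.34 in twi CD2- cells. In mef2 CD2- cells they took 55.4% ± 1.58 against 25.1% ± 1.26, and in duf CD2- cells 27.7% ± 1.55 against 12.2% ± 0.976. In the single CD2+ libraries these took 54.4% for mef2 and 20.8% for duf, against 30.0% ± 4.75 and 12.1% ± 0.916 in their small inputs.

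The comparisons of GFP+ cells with their inputs asked which members were enriched by the reporter sort. In at least 1 of the 6 populations 25 members were called higher, 15 of them in 1 population, 6 in 2, 3 in 3 and 1 in 4, and no member in 5 or 6. Among all 442 regions tested there 12.2% were called higher in at least 1 population. Over all 10 comparisons 31 members were called, beside 14.9% of 444 regions. The 9 twi and mef2 inputs of the rule stand on one side of the twi CD2+, twi CD2- and mef2 CD2- comparisons, so nothing is read from the members' counts there or from these sums. Across members, the log2 changes of twi CD2+ and twi CD2- cells had a Spearman rho of 0.43 (Pearson r 0.50, 118 members), those of twi CD2- and mef2 CD2- cells 0.42 (0.39, 107), and those of duf CD2+ and CD2- cells 0.41 (0.31, 123). Those of mef2 CD2+ and CD2- cells had 0.11 (-0.05, 115). These describe members of 1 library design, and members measured in the same library share its depth. The log2 change had a Spearman rho between 0.02 and 0.20 with GC content and between -0.25 and 0.08 with the mean input level over the 6 populations. The input level is the denominator of the log2 change, so the latter rho is not one of independent measures and nothing is read from it.

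ChIPCRM2907 (3R:17989695-17990673, dm3) was called higher in twi CD2+, twi CD2-, mef2 CD2- and duf CD2- cells. Inputs of the rule stand on one side of all these comparisons but that of duf CD2- cells. Nothing is therefore read from the number of populations. Library values are listed here in the order of the replicate numbers. In twi CD2+ cells it stood at 122254, 137230.0 and 105807 CPM in the GFP+ libraries and at 15082, 27276 and 23416 CPM in the inputs, and in twi CD2- cells at 132520.0, 149039 and 122912 against 13933, 13656 and 10894 CPM. In mef2 CD2- cells it stood at 97304, 92614 and 107506 against 14728, 20512 and 27100.5 CPM. In duf CD2- cells the GFP+ libraries had 27638 to 59789 CPM with a median of 32674 and the inputs 841 to 3311 CPM with a median of 2035. Every GFP+ library of these 4 populations lay above every input of its own. The log2 changes were 4.11 ± 0.37, 4.70 ± 0.17, 3.80 ± 0.29 and 6.29 ± 0.43 in that order (SE), with adjusted p of 0.000156, 1.46e-07, 0.000116 and 3.44e-08 by edgeR, and no alternative ended any of these 4 calls. The single mef2 CD2+ GFP+ library had 125947 CPM beside 9789.9, 13907, 13222, 37329 and 43511 in the small inputs, above all of them, with a log2 change of 2.38 ± 0.81 that was not called (adjusted p 0.281, edgeR). The single duf CD2+ GFP+ library had 11966 CPM beside 1569.6, 42.3, 62.6, 1887 and 3747 CPM, also above all, with a log2 change of 3.55 ± 1.69. It was lower than each of the 6 duf CD2- GFP+ libraries, with a log2 difference of -2.63 ± 0.59. Neither of these 2 duf CD2+ comparisons gave a call for it.

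ChIPCRM3152 (3R:21835656-21836646) was the most abundant member of both twi GFP+ populations and close to absent from the duf pool. It took 238455, 195450.0 and 175074 CPM in twi CD2+ and 291565, 260674 and 251045 CPM in twi CD2- GFP+ libraries, and 125196, 120285 and 101631 CPM in mef2 CD2- GFP+ libraries. Of the 6 duf CD2- GFP+ libraries 5 had no read of it and the other 0.0326 CPM. The twi CD2+ libraries all lay below the twi CD2- libraries, and the direct comparison gave no call (log2 difference 0.15 ± 0.26, adjusted p 0.989, edgeR).

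ChIPCRM2898 (3R:17959709-17960651) was called in both twi populations and in duf CD2- cells, and its mef2 values scattered. It stood at 31105, 29022 and 19873 CPM in twi CD2+ GFP+ libraries against 13343, 8267 and 9578 CPM, and at 37664, 44737 and 32191 against 7556, 13654 and 7069.8 CPM in twi CD2- libraries, without overlap in either. In mef2 CD2- cells the GFP+ libraries had 10369, 12.8 and 4116 CPM and the inputs 3323, 2.58 and 809 CPM. Replicate 2 was near 0 on both sides, and the groups overlapped (log2 change 3.39 ± 2.44, adjusted p 0.489, edgeR). In duf CD2- cells the GFP+ libraries had 6255 to 22750.4 CPM with a median of 18750.4 and the inputs 1146 to 7444 CPM with a median of 4632, with an overlap and a log2 change of 3.88 ± 0.55 (adjusted p 8.53e-05). The twi log2 changes were 3.01 ± 0.52 in CD2+ (adjusted p 0.0084) and 3.34 ± 0.40 in CD2- cells (0.00114). The twi CD2+ call was lost without GFP+ replicate 2 (0.0577) and with total-read scaling (0.123).

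In twi CD2+ cells 9 of 119 members tested were higher and 0 lower, beside 5.13% of 195 regions higher and 0% lower. Without adjustment, 18 of the 119 members and 26 of the 195 regions had a p under 0.05 by edgeR. DESeq2 called 10 members higher and 4 lower, and total-read scaling gave 5 and 1. The shares of all regions called under these settings are not given. The median log2 change was -0.25 over members and -0.51 over all regions, and 20 members were too low to test. In CPM, which the abundant GFP+ regions lower for all others, 10 members lay above every input and 43 below, beside 6.67% and 41.5% of regions.

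The twi CD2+ calls beyond those already described were ChIPCRM2497, ChIPCRM2299, ChIPCRM2754, ChIPCRM2256, ChIPCRM2300 and ChIPCRM2847. ChIPCRM2497 (3R:12569639-12570593), which overlaps another ChIPCRM region by 60 bp, stood at 11207, 38593 and 47124 CPM against 2508, 2832 and 1959.9 CPM in the input, without overlap (log2 change 5.31 ± 0.68, adjusted p 0.00144, edgeR). ChIPCRM2256 (3R:10104020-10105007) stood at 55207, 36658 and 38806 against 29826, 16291 and 10483 CPM, also without overlap (2.82 ± 0.49, 0.00869). In twi CD2- cells its GFP+ libraries, at 21905, 8284 and 30738 CPM, overlapped their inputs at 15816, 15039.5 and 11833 CPM. In mef2 CD2- cells ChIPCRM2256 went the other way in CPM, at 3411, 5701 and 2749.6 CPM against 13826, 6794 and 11138 CPM, below every input and not called (log2 change 0.19 ± 0.83, adjusted p 0.971). The twi CD2+ call of ChIPCRM2256 was lost without GFP+ replicate 2 (0.0585), with total-read scaling (0.13) and by DESeq2 (0.0671). ChIPCRM2847 (3R:17437327-17438327) stood at 12630.5, 27024 and 30415 against 3451, 8010.1 and 15582 CPM, with an overlap (2.97 ± 0.70, 0.0475). Its call was lost without any 1 of the 3 GFP+ libraries or without input replicate 1 or 2, at adjusted p of 0.0519 to 0.173, by DESeq2 (0.0746) and with total-read scaling (0.249).

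In twi CD2- cells 4 of 122 members tested were higher and 0 lower, beside 2.94% of 204 regions higher and 0% lower. An unadjusted p under 0.05 by edgeR was found for 17 of the 122 members and 28 of the 204 regions. DESeq2 called 13 and 3, and its share of all regions called is not given. The 4 were ChIPCRM2907, ChIPCRM3152, ChIPCRM2898 and ChIPCRM3147, and the replicate block, in which same-numbered libraries are paired, called 4 and 0. The median log2 change was -0.06 over members and -0.29 over all regions. In CPM 4 members lay above every input and 46 below, beside 3.43% and 38.2% of regions. ChIPCRM3147 (3R:21824689-21825693) was one of the members nearest to the presence threshold. It had 33365, 13914 and 2722 CPM in the GFP+ libraries and 0, 1.89 and 1.58 CPM in the inputs, without overlap (log2 change 15.14 ± 2.51, adjusted p 0.0085, edgeR). The call was lost without GFP+ replicate 1 (0.0864) or input replicate 3 (0.064). The same member was high in 2 of 3 libraries of other GFP+ groups, with 1631, 4284 and 1.05 CPM in twi CD2+ and 1719.8, 4366 and 2.6 CPM in mef2 CD2- cells, where replicate 3 was the low one each time. Its neighbour ChIPCRM3148, 2264 bp away, had 1384, 0.334 and 1060.1 CPM in twi CD2- GFP+ cells against a mean of 1730.3 ± 1143 CPM in the input (SD, n = 3), not called (0.19, 0.995).

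A direct comparison of the twi GFP+ populations, which uses no input, asked which members differed between reporter-positive cells with and without CD2. Of 111 members tested 3 were higher in CD2+ and 1 in CD2- cells, beside 3.49% and 0.581% of 172 regions. Before adjustment 12 of the 111 members and 19 of the 172 regions had a p under 0.05 by edgeR. DESeq2 called 6 and 4, and its share of all regions called is not given. The differences of these 4 were large, from 5.45 to 9.81 on the log2 scale upward and -12.32 downward, and the libraries of each were fully separated. In CPM 8 members were so separated upward and 6 downward, beside 7.56% and 5.81% of regions. The median log2 difference was 0.09 over members and 0.09 over all regions.

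ChIPCRM2300 (3R:10415270-10416230) stood at 11444, 6474 and 10864 CPM in twi CD2+ GFP+ libraries and at 24.7, 26.9 and 21.6 CPM in twi CD2- GFP+ libraries (log2 difference 9.10 ± 1.30, adjusted p 0.00894, edgeR). Its inputs scattered, at 1.95, 90.2 and 7.33 CPM in CD2+ and 1.49, 1319.6 and 1688 CPM in CD2- cells. ChIPCRM2754 (3R:16375852-16376858) stood at 15857, 16672 and 23883 against 605, 679.8 and 529 CPM (5.45 ± 0.82, 0.00894). Its inputs stood at 1087, 1482 and 4515 CPM in CD2+ and 1117, 1776 and 4215 CPM in CD2- cells. The CD2+ enrichment of ChIPCRM2754 over its input (4.57 ± 0.77, 0.00832) was lost without GFP+ replicate 2 (0.0577) and with total-read scaling (0.0701). The merged region ChIPCRM2947+2948 (3R:18852751-18853754), which overlaps another ChIPCRM region by 439 bp, stood at 5075, 9784 and 2363 against 9.96, 18.4 and 4.07 CPM (9.81 ± 1.805, 0.0198). It was called higher than the input in neither twi population. In CD2- cells its GFP+ values, at or under 18.4 CPM, lay below inputs of 3135, 1696 and 434 CPM.

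ChIPCRM6322 (2L:18889662-18890587) was the member with the opposite difference. It had 0.288, 1.09 and 1.55 CPM in twi CD2+ and 1642, 9732 and 8529 CPM in twi CD2- GFP+ libraries (log2 difference -12.32 ± 2.21, adjusted p 0.0198, edgeR). The CD2+ inputs held 797, 3266 and 1.02 CPM and the CD2- inputs 348, 4143 and 5549.7 CPM, so the CD2- GFP+ values overlapped their input. All 4 differences were lost when any 1 of the CD2- GFP+ replicates 1 and 2 or the CD2+ GFP+ replicates 1 and 2 was left out, at adjusted p of 0.0588 to 0.197. ChIPCRM6322 was lost without CD2+ GFP+ replicate 3 as well (0.0735). Without CD2+ GFP+ replicate 3 there were 6 members higher and 0 lower. Over 4 groups with the inputs included, the difference of enrichment gave 0 members higher and 0 lower of 126 tested by edgeR, beside 0% and 0% of 211 regions. Its unadjusted p was under 0.05 for 12 of the 126 members and 22 of the 211 regions. DESeq2 called 2 and 4, and its share of all regions called is not given. ChIPCRM2300 and ChIPCRM2754 came closest there, at log2 differences of 13.79 ± 3.03 and 5.24 ± 1.18, each with an adjusted p of 0.0706.

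In mef2 CD2- cells 8 of 115 members tested were higher and 4 lower, beside 5.46% and 3.83% of 183 regions. Unadjusted p-values by edgeR were under 0.05 for 33 of the 115 members and 44 of the 183 regions. DESeq2 called 25 and 15, and total-read scaling turned the split to 5 higher and 9 lower. For neither setting is the share of all regions called given. The median log2 change was -0.11 over members and -0.41 over all regions, and 24 members were too low to test. In CPM 13 members lay above every input and 47 below, beside 8.74% and 41.5% of regions. The higher members were ChIPCRM2078, ChIPCRM2907, ChIPCRM3152, ChIPCRM5819, ChIPCRM5284, ChIPCRM2299, ChIPCRM2847 and ChIPCRM5556, and the lower ones ChIPCRM2506, ChIPCRM2983, ChIPCRM3812 and ChIPCRM4832.

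ChIPCRM2078 (3R:7177448-7178448) was the leading member of mef2 cells and varied between twi replicates. It took 139896, 139343 and 135797 CPM in mef2 CD2- GFP+ libraries against 6094, 8852 and 6905 CPM in the inputs (log2 change 5.81 ± 0.24, adjusted p 3.57e-06, edgeR). In the twi pool its GFP+ values were 12.3, 79.4 and 29697 CPM in CD2+ and 93.3, 164 and 29345 CPM in CD2- cells, beside 16.3, 3.1 and 470.3 and 11.7, 8.73 and 889 CPM in the inputs. Replicate 3 was high in all 4 twi groups, inputs included. In the duf pool all 6 CD2- inputs and all 6 CD2- GFP+ libraries had no read of it. ChIPCRM5432 (2L:4363360-4364283) showed the same split, with 4.62, 35.3 and 15419 CPM in twi CD2+ and 26.7, 51.5 and 28778 CPM in twi CD2- GFP+ libraries, again high in replicate 3.

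ChIPCRM5819 and ChIPCRM5284 were near absent from the twi pool, at no more than 30.5 CPM in any twi library, and enriched in mef2 CD2- cells. ChIPCRM5819 (2L:9988389-9989430), which overlaps a neighbour by 492 bp, stood at 13877, 20274 and 24931 CPM in the GFP+ libraries against 3274, 1736 and 1692 CPM (4.70 ± 0.58, adjusted p 0.00219, edgeR). ChIPCRM5284 (2L:2164492-2165474) stood at 21352, 21953 and 54269 against 1172, 3832 and 4759 CPM (4.80 ± 0.71, 0.0048). Neither group overlapped its input. ChIPCRM5556 (2L:6177166-6178185) stood at 2837, 17669.5 and 13885 against 2608, 2739 and 2157 CPM (3.77 ± 0.89, 0.0426), a call that ended when an input or GFP+ replicate 2 or 3 was left out, at 0.0702 to 0.144, and with total-read scaling (0.168). ChIPCRM2847 stood at 24361, 33316 and 20099 against 14676, 13766 and 19505 CPM (2.28 ± 0.43, 0.0188), lost without any 1 input at 0.056 to 0.094 and with total-read scaling (0.24).

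The 4 members that fell in mef2 CD2- cells were present in every input and all but missing from the GFP+ libraries. ChIPCRM4832 (3L:18313580-18314509) had 0.861, 0.025 and 0.887 CPM against 5184, 3733 and 3445 CPM (-11.24 ± 2.50, adjusted p 0.0371, edgeR), and ChIPCRM3812 (3L:3391937-3392884) had 1.43, 0.0499 and 0.414 against 2282, 6822 and 1587 CPM (-10.89 ± 2.69, 0.0478). ChIPCRM2506 (3R:12595974-12597040) had no read in the 3 GFP+ libraries against 1156, 2282 and 907 CPM (adjusted p 0.044), at least 26278-fold lower in CPM against 3 reads over the group. ChIPCRM2983 (3R:19139680-19140616) had 1 read, in replicate 3, against 306, 3238 and 102 CPM, a ratio of input to GFP+ CPM of 66921 with an exact 95% counting interval of 12011 to 2643270.0 (adjusted p 0.0478). These calls lay close to the threshold. ChIPCRM2506, ChIPCRM2983 and ChIPCRM3812 were lost without any 1 of the 6 libraries and ChIPCRM4832 without any but GFP+ replicate 2, at adjusted p of 0.0502 to 0.144. Without a filter on low counts none of the 4 was called, and with a mean count of at least 100 only ChIPCRM4832 was.

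The single mef2 CD2+ GFP+ library gave no call among the members, all 139 of which could be tested. It had 0 members higher and 0 lower by edgeR, beside 0% and 0% of 230 regions, with 9 members at an unadjusted p under 0.05. DESeq2 called 0 and 1. Counts of all regions at an unadjusted p or under other settings are not set beside the members' counts here, so nothing is read from these. The fit gave this lone library the variance of its inputs, which were CD2- cells, so the sort on CD2 and the sort on GFP cannot be told apart. It lay above all 5 small inputs for 20 members and below all for 15, beside 13% and 12.2% of regions. ChIPCRM2078 (129459 CPM against 7243, 11679, 11669, 10124 and 1857) came closest on the higher side, at 3.82 ± 0.94 with an adjusted p of 0.0738. ChIPCRM1831 (3R:4512729-4513672) came closest on the lower side, with 903 CPM against 36952, 42616, 52759.7, 26461 and 43949 CPM (-5.51 ± 1.31, 0.0738). With the spread taken from all 4 mef2 groups 4 members were higher and 1 lower, and with all 8 CD2- inputs as the control 3 and 2.

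Set directly against the 3 mef2 CD2- GFP+ libraries, the single CD2+ GFP+ library was lower for 6 members and higher for 1 of 137 tested, beside 3.54% and 0.442% of 226 regions, with 20 members at an unadjusted p under 0.05. The spread came from the 3 CD2- libraries alone, which the single library was assumed to share. As above, nothing is read from the members' counts at an unadjusted p or under other settings. DESeq2 called 7 lower and 2 higher, with ChIPCRM4832 the one call in common, and total-read scaling gave 3 lower and 1 higher. The median log2 difference was -1.005 over members and -0.70 over all regions. In CPM 59 members lay above all 3 CD2- libraries and 25 below, beside 47.3% and 16.8% of regions. ChIPCRM2889 (3R:17870003-17870903) had 317 CPM in the CD2+ library against 22270.1, 42228 and 15289.6 CPM in the CD2- libraries (-7.25 ± 1.32, adjusted p 0.00462, edgeR). ChIPCRM5284 had 892 against 21352, 21953 and 54269 CPM (-5.95 ± 1.08, 0.00462), and ChIPCRM5819 had 226 against 13877, 20274 and 24931 CPM (-7.24 ± 1.56, 0.0141). These 3 members, all under 10 CPM on average in twi inputs, were at 10088, 11.2, 4345, 5161 and 87.6 CPM, 24.0, 27.1, 109, 3.2 and 16402 CPM and 10.2, 9.98, 813, 14.1 and 133 CPM in the 5 small inputs, so several small inputs held little of them as well. Their low level in the CD2+ library cannot be told apart from a low level in the cells it was sorted from.

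ChIPCRM4832 was the member that ran the other way, with 24185 CPM in the mef2 CD2+ GFP+ library against 0.861, 0.025 and 0.887 CPM in CD2- GFP+ cells (14.67 ± 3.30, adjusted p 0.0175, edgeR). Its small inputs held 18407, 49.7, 60.7, 18452 and 1852 CPM, so 2 of the 5 were near the level of the CD2+ library. ChIPCRM1831 had 903 against 12655, 19289 and 33624 CPM (-5.39 ± 1.35, 0.0324). ChIPCRM3152 (-1.23, 0.0116) and ChIPCRM2078 (-0.87, 0.0292) were lower by small amounts, and neither passed with total-read scaling (0.25 and 0.464). All 7 differences were lost without CD2- GFP+ replicate 2, at adjusted p of 0.0669 to 0.233, and when only reads at the ends of regions were counted, at 0.0682 to 0.15.

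The duf pool is independent of the rule that chose the members. In duf CD2- cells 18 of 123 members tested were higher (14.6%) and 2 lower (1.63%), beside 11.8% and 1.25% of 400 regions. The members' share of calls was thus near that of all regions. With no adjustment 26 of the 123 members and 69 of the 400 regions had a p under 0.05 by edgeR. DESeq2 called 22 and 2, and its share of all regions called is not given. The median log2 change was 0.22 over members and -0.07 over all regions. Total-read scaling turned the split to 11 higher and 37 lower, and the share of all regions called under that scaling is not given. Pairing by replicate number gave 16 higher and 1 lower, with ChIPCRM2300 (0.194), ChIPCRM5368 (0.0652) and ChIPCRM4243 (0.0707) no longer called.

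The labels give sequencing lanes for the duf libraries. With lane as a block 9 of the 18 higher members were still called, and 1 other member was lower. The 9 that were lost were ChIPCRM2060+2061, ChIPCRM2300, ChIPCRM2738, ChIPCRM2947+2948, ChIPCRM3407, ChIPCRM5368, ChIPCRM5556, ChIPCRM6081 and ChIPCRM6322, at adjusted p of 0.0722 to 0.806 by edgeR, and both lower members were lost too. Counting CD2- GFP+ libraries and CD2- inputs of 200000 cells, and neither the CD2+ library nor the small inputs, lane 1 held 1 GFP+ library and 1 input, and the GFP+ value lay above the input for 15 of the 18, not for ChIPCRM2060+2061, ChIPCRM2300 and ChIPCRM3407. Lane 8 held 1 such GFP+ library and 2 such inputs, and the GFP+ value lay above both for 14, not for ChIPCRM2060+2061, ChIPCRM5368, ChIPCRM5556 and ChIPCRM6322. In 7 members of all those tested every GFP+ library lay above every input and in 34 below, beside 4% and 22.2% of regions.

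ChIPCRM5432 led the duf population. Its GFP+ libraries had 51114 to 95399 CPM with a median of 59213 against 4477 to 8501 CPM with a median of 5864 in the inputs, without overlap (log2 change 5.49 ± 0.31, adjusted p 3.48e-09, edgeR). ChIPCRM2889 followed, with 36061 to 73370.2 CPM with a median of 54358 against 2267 to 9129 CPM with a median of 5361, also without overlap (5.41 ± 0.44, 1.18e-07). ChIPCRM2889 was thus enriched in the duf pool and near absent from the twi libraries, where no value exceeded 26.3 CPM. ChIPCRM5819 had 18924 to 34347 CPM with a median of 21143 in GFP+ cells against 1837 to 5709.7 CPM with a median of 3504 (4.69 ± 0.39, 1.18e-07). ChIPCRM2299 (3R:10412527-10413427) had 9286 to 14837 CPM with a median of 12204 against 919 to 4523 CPM with a median of 3082 (4.09 ± 0.44, 3.68e-06). The groups of both were separated.

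ChIPCRM5284 and ChIPCRM1586 had separated groups with wide spread on each side. ChIPCRM5284 had 1604 to 35239 CPM with a median of 25874 in GFP+ cells against 3.11 to 1123 CPM with a median of 92.5 (8.52 ± 1.45, adjusted p 0.000455, edgeR), with replicates 5 and 6 at 1604 and 2856 CPM, and the other 4 at 25478, 26269, 35239 and 31565 CPM. ChIPCRM1586 (3R:851011-852016) had 2604 to 25670.2 CPM with a median of 7314 against 112 to 2293 CPM with a median of 437 (5.86 ± 0.91, 0.000221). The member was high in 2 of 3 libraries of each twi GFP+ group, with 2.74, 7646 and 7237 CPM in CD2+ and 1.61, 14107 and 12802 CPM in CD2- cells, and in all 3 mef2 CD2- GFP+ libraries, with 8209, 8459 and 5392 CPM. It was called in neither driver's comparisons.

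ChIPCRM2738 (3R:15823222-15824182) and ChIPCRM2901 (3R:17971048-17972147) overlapped their inputs. ChIPCRM2738 had 17.3 to 21974 CPM with a median of 8317 against 13.2 to 3076 CPM with a median of 332 (5.77 ± 1.33, adjusted p 0.00613, edgeR), and the low GFP+ library, replicate 5 with 17.3 CPM, was matched by a low input of the same number with 13.2 CPM. With lane as a block its adjusted p was 0.185. ChIPCRM2901 had 3918 to 14202 CPM with a median of 10231 against 1437 to 7423 CPM with a median of 2515 (3.69 ± 0.53, 0.000106). ChIPCRM2300 had 0.13 to 2431 CPM with a median of 1213 against 0 to 157 CPM with a median of 101 (5.94 ± 1.69, 0.0266), and its call was lost without GFP+ replicate 3 or any 1 input but replicate 3, at 0.0515 to 0.068. ChIPCRM5556, called in mef2 CD2- cells as well, had 6607 to 32108 CPM with a median of 13368 against 939 to 7489.8 CPM with a median of 2463 (4.18 ± 0.67, 0.00029), and with lane as a block its adjusted p was 0.13.

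The remaining 6 higher members of duf CD2- cells were ChIPCRM6081, ChIPCRM2947+2948, ChIPCRM3407, ChIPCRM2060+2061, ChIPCRM6322 and ChIPCRM5368, whose calls were lost under total-read scaling and kept by DESeq2. In mean CPM the GFP+ cells stood at 1.35, 1.68, 0.902, 1.01, 2.66 and 1.08 times the input in that order, while their TMM log2 changes were 2.50, 2.84, 1.98, 2.09, 3.45 and 2.20. Scaled by total reads none of the 6 was called, at adjusted p of 0.185 to 0.978, and ChIPCRM3407 turned to -0.16 (0.755). ChIPCRM2300 was lost under that scaling too (0.0908). ChIPCRM5368 was also lost without GFP+ replicate 2, 3, 4 or 6 or input replicate 1, 2, 3, 4 or 5, at 0.0503 to 0.106. Each of the 6 overlapped its input in CPM.

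ChIPCRM2983 and ChIPCRM4243 were the lower members of duf CD2- cells. ChIPCRM2983 had 0.0978 to 0.682 CPM with a median of 0.342 in GFP+ libraries against 141 to 612 CPM with a median of 458, without overlap (-8.08 ± 1.56, adjusted p 0.00134, edgeR), and was lost with lane as a block, alone of the alternatives (0.13). ChIPCRM4243 (3L:10834003-10834960) had 208 to 1104 CPM with a median of 721 against 6014 to 10226 CPM with a median of 7869 (-1.54 ± 0.47, 0.0403). Leaving out GFP+ replicate 1, 3 or 5, or an input, ended the call, at 0.051 to 0.106.

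The single duf CD2+ GFP+ library gave 1 member higher and 0 lower of 129 tested, beside 0.235% and 0% of 425 regions, with 10 members at an unadjusted p under 0.05. DESeq2 called 2 and 14. The call was ChIPCRM2889, with 37647 CPM against 3444, 2608, 903, 3206 and 3357 CPM in the small inputs (4.32 ± 0.63, adjusted p 0.0371, edgeR). It was lost without small input replicate 1, 2, 4 or 5 (0.0508 to 0.138) and with total-read scaling (0.0952). As for mef2, the inputs were CD2- cells and lent the lone library their variance. Nothing is read here or in the direct duf comparison from the members' counts at an unadjusted p or by DESeq2. Those of all regions are not set beside them. Above all 5 inputs lay 19 members and below all 35, beside 12.2% and 24.7% of regions. ChIPCRM6081 (2L:14512703-14513646) was the third most abundant member of this library, at 23964 CPM. The small inputs held 409, 3420.1, 114, 1349.7 and 8709 CPM of it, and no duf CD2- GFP+ library held more than 6731 CPM. Its log2 change was 3.65 ± 1.43 over the inputs and 1.52 ± 0.70 against the duf CD2- GFP+ libraries, and neither was called. ChIPCRM5432 was the most abundant, at 53689.9 CPM against 3384, 8663, 11300.3, 22.6 and 2282 CPM.

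Set directly against the 6 duf CD2- GFP+ libraries, whose spread it was assumed to share, the CD2+ GFP+ library gave 0 members higher and 0 lower of 128 tested by edgeR, beside 0% and 0.713% of 421 regions, with 9 members at an unadjusted p under 0.05. DESeq2 called 0 and 20. ChIPCRM6322 came closest, with 0.912 CPM against 298 to 6548 CPM with a median of 3718 (-12.85 ± 2.76, adjusted p 0.0587). ChIPCRM6322 was thus near 0 in the CD2+ GFP+ libraries of all 3 drivers, at 0.288, 1.09 and 1.55 CPM for twi, 6.29 CPM for mef2 and 0.912 CPM for duf. In the CD2- GFP+ libraries it ran from 298 to 9732 CPM over the 3 drivers. The twi difference was called, and the duf difference and the mef2 difference (log2 -9.64 ± 5.70, adjusted p 0.426) were not. The small inputs beside the single libraries were low in many cases too, at 8229, 66.9, 772, 8.99 and 59.9 CPM for mef2 and 0.115, 2.29, 1.54, 1446 and 1.71 CPM for duf.

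Some named members had neighbours with other values, and over the 36 pairs no count or test of such differences was made. ChIPCRM2298, ChIPCRM2299 and ChIPCRM2300 lie side by side on 3R, with gaps of 793 bp and 1842 bp. ChIPCRM2299 was higher in twi CD2+, mef2 CD2- and duf CD2- cells (log2 4.22, 2.48 and 4.09, adjusted p 0.00144, 0.0188 and 3.68e-06), and the mef2 call ended when GFP+ replicate 3 or one of the inputs 2 and 3 was left out (0.0505 to 0.116) and with total-read scaling (0.228). ChIPCRM2300 was higher in twi CD2+ and duf CD2- cells, the former lost without GFP+ replicate 2 (0.0577). ChIPCRM2298 was called nowhere, with 0.516, 0.3 and 1.77 CPM in mef2 CD2- GFP+ libraries against 4333, 677 and 876 CPM in the inputs (-9.65, 0.058).

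ChIPCRM5283 and ChIPCRM5284 are 729 bp apart on 2L and were held by different pools. ChIPCRM5283 averaged 202 CPM in twi inputs, 0.865 in mef2 and 14.0 in duf inputs, while ChIPCRM5284 averaged 2.05, 3291 and 577 CPM. ChIPCRM5818 and ChIPCRM5819 are also 729 bp apart. ChIPCRM5818 was at 4.07, 1335 and 1442 CPM in mef2 CD2- GFP+ libraries against 11117, 9909 and 15713 CPM in the inputs, below all of them and not called (-2.20, 0.51), where ChIPCRM5819 was higher. ChIPCRM4832 and ChIPCRM4833 overlap by 677 bp, so reads of one can be shared with the other. In the mef2 CD2+ GFP+ library ChIPCRM4832 had 24185 CPM and ChIPCRM4833 11.1 CPM. In duf CD2- inputs the order was turned, with 0 to 369 CPM with a median of 0.136 for ChIPCRM4832 and 519 to 1844 CPM with a median of 1517 for ChIPCRM4833.

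ChIPCRM3812, ChIPCRM3814 and ChIPCRM3815 are neighbours on 3L, with 292 bp between the first and the second, and stood at under 100 CPM in every mef2 CD2- GFP+ library. ChIPCRM3814 had 0.344, 0.549 and 0.887 CPM against 0.232, 1.03 and 2066 CPM in the inputs, and ChIPCRM3815 had 22.4, 14.7 and 77.8 against 1019, 1510.5 and 416 CPM. The former overlapped its inputs, 2 of which were as low, and the latter did not. Only ChIPCRM3812 of the 3 was called, and the adjusted p was 0.216 for ChIPCRM3814 and 0.379 for ChIPCRM3815. ChIPCRM2505 and ChIPCRM2506, 3928 bp apart, differed in the same population. ChIPCRM2505 had 5769, 0.0999 and 1305 CPM in mef2 CD2- GFP+ libraries against 0.0581, 0.258 and 2.61 CPM in the inputs, not called (12.73, 0.0925), and ChIPCRM2506 had no read in them.

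Some abundant members were not called in the population where they were abundant. ChIPCRM2845, ChIPCRM770 and ChIPCRM5806, singled out after their values were seen for twi input means of 24055, 25159.5 and 27887 CPM, were called in no comparison. ChIPCRM5806 had 4242, 18.8 and 7106 CPM in twi CD2+ GFP+ libraries against 22627, 34003 and 31282 CPM in the inputs, below all of them (log2 change -1.53, adjusted p 0.775, edgeR). ChIPCRM770 had 4307, 3322 and 2501 CPM in mef2 CD2- GFP+ libraries against 30547, 26204 and 32642 CPM (-1.56, 0.153). ChIPCRM752 was among the 5 most abundant members of twi CD2- GFP+ cells, at 23243, 17035 and 23607 CPM, and its inputs overlapped it, at 26393, 25989 and 22096 CPM (1.08, 0.343). ChIPCRM4222 was among the 5 of the mef2 CD2+ GFP+ library, at 42226 CPM, above small inputs of 8356, 2741, 36019, 30549.8 and 603 CPM (1.27, 0.859). ChIPCRM3407 was among the 5 there and in mef2 CD2- GFP+ cells, in the latter at 25827, 47083 and 38059 CPM against inputs of 27829, 48435 and 47116 CPM (1.41, 0.0611).

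Of the 139 members, 108 were called in none of the 10 comparisons, which does not show that they lack activity in these cells.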

How the data were processed

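Inserts from sorted cells were sequenced, and each library came as 1 table of regions. Per the file headers, the authors deposited for each region an expected count (total reads, with fractions where reads were shared between regions), a count of reads at the region's start and end, and a GC fraction. Base calling with CASAVA 1.8 and the dm3 genome are named in the submitters' processing notes, and the mapper's settings and the rule for sharing reads are not given in the sources used here. Fractional counts occurred in 2 to 87 regions per library and were rounded to whole numbers, with ties upward.

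All regions were fitted with edgeR 4.0.16 in R 4.3.3 (filterByExpr, TMM, quasi-likelihood F test, Benjamini-Hochberg, threshold 0.05), and DESeq2 1.42.0 was an alternative. Each comparison used the libraries of its own groups without a block, and the twi difference used 4 groups. Other alternatives were scaling by total reads, other filters on low counts, end reads only, leaving out each library, replicate and lane blocks, another variance or control for the single libraries, and, added after seeing the data, rounding ties to even. The procedure was tested on simulated data with a dispersion, the square of the coefficient of variation, of 0.3. The coefficients of 165%, 159% and 139% estimated for twi CD2+, mef2 CD2- and duf CD2- cells correspond to a far larger dispersion. The recovery and false calls of the procedure are thus known for the simulated spread only, and not for these libraries. Of 10 regions changed by a log2 of 3 it recovered 10 in each of twi CD2+ (191 regions), mef2 CD2- (194) and duf CD2- cells (424), and of 10 changed by -3 it recovered 9, 9 and 10. It called 2 of 161, 1 of 164 and 1 of 394 unchanged regions.

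Replicate numbers were taken to pair libraries where every same-numbered pair had deviations from the group means correlated above 0.1. This held for duf CD2- (0.201 to 0.376) and twi CD2- cells (0.192 to 0.213). No 2 libraries of a group agreed within sampling noise, and twi CD2- GFP+ replicates 2 and 3 carry the same cell number, 66845.

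The members and lists were chosen with earlier results of these data known. Members named were those called in any comparison, the 5 most abundant in each GFP+ population, the 3 on either side of the threshold, and members within 5000 bp of one of these. Members named for their presence in a driver's pool, their input level or a nearby gene's tile were chosen after their values were seen. The 5 mef2 small inputs, titled as comparison or variance controls, were left out of the rule that chose the members and served as the inputs of the mef2 CD2+ GFP+ library.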

Additional observations from a re-analysis of the deposited data

Results flagged for a closer look

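In 41 pairs of a called region and a group of 5 or 6 libraries, 3 had a library whose gap to its nearest neighbour exceeded Dixon's 95% critical value. Chance gives about 1 in 20 for normally distributed values, which CPM need not be, and all 3 stood on the high side. ChIPCRM5819 stood at 34346.8 CPM in duf CD2- GFP+ replicate 1, where the other 5 libraries ran from 18924 to 23666 CPM. ChIPCRM5284 stood at 1123 CPM in duf CD2- input replicate 3, where the others ran from 3.11 to 191 CPM. ChIPCRM6322 stood at 4491 CPM in duf CD2- input replicate 6, where the others ran from 180.2 to 1115 CPM. The calls of these 3 members in duf CD2- cells did not depend on any 1 library.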

How the results depend on the processing

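Of 853 results for single members recomputed, 689 kept their direction and side of the threshold, 163 lost the call and 1 reversed, ChIPCRM3407 in duf CD2- cells at -0.16 scaled by total reads. The rule left 135 members at 10 CPM and 136 at 1 CPM in at least 2 inputs. Counts below are members higher and lower, and the cause of changes was not tested. They stand without the shares of all regions called under the same settings, so they do not show changes particular to the members. DESeq2 gave 10 and 4 in twi CD2+, 13 and 3 in twi CD2-, 0 and 1 in mef2 CD2+, 25 and 15 in mef2 CD2- cells, and for duf CD2+ cells 2 and 14. It gave 6 and 4 in the direct twi, 2 and 7 in the direct mef2 and 0 and 20 in the direct duf comparison, and 2 and 4 for the twi difference. Total reads gave 5 and 1 in twi CD2+, 1 and 0 in mef2 CD2+, 5 and 9 in mef2 CD2-, and for duf 0 and 0 in CD2+ and 11 and 37 in CD2- cells, with 1 and 3 in the direct mef2 comparison. Reads at region ends gave 1 and 2 for mef2 CD2+, 18 and 1 for duf CD2-, 0 and 0 in the direct mef2 and 0 and 1 in the direct duf comparison. Without a filter mef2 CD2- cells had 9 and 0 and the twi difference 2 and 0. A mean count of 100 gave 1 and 2 in mef2 CD2+ and 8 and 1 in mef2 CD2- cells, and ties rounded to even 8 and 1 in the latter. The spread of all 4 groups of a driver gave 4 and 1 in mef2 CD2+ and 3 and 0 in duf CD2+ cells, and all CD2- inputs as control 3 and 2, and 4 and 0. Lane as a block gave 9 and 1 in duf CD2- cells.

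The replicate block gave 16 and 1 in duf CD2- and 4 and 0 in twi CD2- cells. In both the numbers were taken to pair the libraries. In the other comparisons not every same-numbered pair exceeded 0.1, so the numbers were not taken to pair the libraries. There same-numbered pairs correlated at 0.0753 to 0.306 in twi CD2+ and 0.0551 to 0.194 in mef2 CD2- cells. In the direct twi comparison they correlated at 0.0979 to 0.548. Differently numbered pairs correlated at -0.234 to 0.00698, -0.148 to 0.0646 and -0.417 to 0.176 in that order. Of these comparisons, only twi CD2+ cells had every same-numbered pair above every differently numbered pair. In duf CD2- cells differently numbered pairs reached 0.221, above the lowest same-numbered pair. The block gave 10 and 0 in twi CD2+ and 5 and 0 in mef2 CD2- cells. It gave 3 and 1 in the direct twi comparison and 0 and 0 for the twi difference. The replicate block kept the 4 calls of twi CD2- cells, the 4 of the direct twi comparison and the 9 of twi CD2+ cells, and 5 of the 12 in mef2 CD2- cells.

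Leaving out 1 library gave 4 to 12 members higher and 0 to 0 lower in twi CD2+, 3 to 4 and 0 to 0 in twi CD2-, 0 to 1 and 0 to 1 in mef2 CD2+, 5 to 10 and 0 to 6 in mef2 CD2-, and for duf 0 to 1 and 0 to 0 in CD2+ and 16 to 19 and 1 to 3 in CD2- cells. In direct comparisons it gave 0 to 6 and 0 to 1 for twi, 0 to 1 and 0 to 7 for mef2, and 0 to 0 and 0 to 1 for duf, and 0 to 1 and 0 to 1 for the twi difference. At these depths 3 reads equal at most 0.192 CPM, and depth and the spread between libraries were not compared as limits.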
